A study of Bos taurus with 6 samples.

Results

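DEAD and DEAH box RNA helicases are a family of ATP-driven enzymes, and the rows described here are those of the deposited gene table whose symbol is DDX or DHX followed by a digit, with DDX4 and DDX6 left out. There were 59 such rows, carrying 51 symbols, of 20707 rows in all. DDX21 stood on 6 rows, and DDX18, DHX37 and DDX26B stood on 2 rows each. Of the 59 rows, 40 had a mean of at least 1 RPKM and were tested, 28 of them DDX genes and 12 DHX genes. The other 19 rows were too low to test, and 6 of those were at 0 in all libraries. RPKM is the number of reads per kilobase of gene model, scaled to the mapped reads of the library. That takes out the length of the gene model when genes are compared, but no other difference in how well their reads are captured.

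The libraries came from individual cattle (Bos taurus) oocytes, taken from abattoir ovaries, at 2 stages of meiosis. There were 3 libraries of MII oocytes, which spent 24 h in maturation culture and stand at the second meiotic metaphase, and 3 of GV oocytes, which were collected at aspiration of the follicle and are held in meiotic prophase with an intact nucleus, the germinal vesicle. No label gives a genetic change or drug that separates the stages, and MII oocytes differ from GV oocytes in culture time as well as in stage. Synthesis of cDNA began at poly(A) tails, so the number of transcripts and the capture of their tails cannot be told apart in a level. A level is relative to all mapped reads of its library, and fewer molecules of a gene in a smaller RNA pool cannot be told apart from an unchanged number in a larger one. Per the labels, sequencing adapters were diluted 1 in 30 or 1 in 50 for MII samples. For GV samples the dilution was 1 in 10 or 1 in 30. The MII sample at 1 in 30 has a title that matches no library. Among libraries whose names match a sample title, those of MII were at 1 in 50 and those of GV at 1 in 10 or 1 in 30. No dilution was shared between the stages among these libraries, and the part of dilution in the stage differences was not tested.

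The libraries are called MII14c, MII15, MII15c, GV14, GV14c and GV15 in the table. MII15c and GV14c match no sample title and are known only by their stage. The sample titles MII14 and GV15c in turn match no library, so the number and letter of MII15c and GV14c cannot be checked. No source explains the numbers 14 and 15 or the letter c. Nothing says that the oocytes came from separate animals or that a c library is a further oocyte, so the p-values rest on a spread between libraries that may be technical. Depth, recovered from the spacing of low values, was 31.1, 21.3 and 32.6 M reads in MII14c, MII15 and MII15c, and 29.9, 26.9 and 20.2 M reads in GV14, GV14c and GV15. At 2 kb, 1 RPKM then stands for 42.5 to 65.1 reads in MII libraries and 40.5 to 59.9 reads in GV libraries, which covers counting error only. All 12 oocyte markers found in the table were tested; 8 were lower and 1, BTG4, was higher in MII, with a median log2 change of -1.95. BTG4 made up most of their summed level in the MII libraries. That sum was 18200 to 30540 RPKM in MII and 16870 to 21710 RPKM in GV; without it the sum was 2891 to 3801 RPKM in MII and 6880 to 10030 RPKM in GV. Of 19 cumulus and granulosa markers, 4 (AMHR2, AREG, LHCGR and PTX3) were at 0 in all libraries and FSHR stayed at or under 0.014 RPKM. In at least 1 library 10 of them reached 1 RPKM. Of the 7 tested, STAR and CD44 were lower and HAS2 and VCAN higher in MII. That is 28.6% each, against 26.9% and 13.4% of all tested genes. The summed level of those 19 was 119.6 to 128.2 RPKM in MII and 108.8 to 187.2 RPKM in GV, most of it from STAR and HAS2. The 6 blood and immune markers summed to 1.82 to 8.97 RPKM in MII and 15.1 to 33.1 RPKM in GV.

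As background, DEAD and DEAH box proteins bind RNA and use ATP to open short duplexes or to strip proteins from the RNA. DEAD box enzymes (DDX) tend to pry a duplex apart locally, whereas DEAH box enzymes (DHX) move along a strand. Members serve nearly every step in the life of an RNA, from transcription, splicing and export to ribosome assembly, translation and decay. A fully grown oocyte has stopped most transcription and runs meiosis on stored mRNA, whose poly(A) tails are lengthened or shortened in the cytoplasm during maturation.

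Of the 40 tested helicase mRNAs, 8 were lower and 4 were higher in MII than in GV oocytes (limma, adjusted p under 0.05). The lower ones were DDX39A, DDX56, DHX58, DDX47, DHX8, DDX23, DDX1 and DDX20, and the higher ones were DDX3X, DDX18, DDX43 and DHX15. The lower 8 are 20% of the tested members, against 26.9% of all 8671 tested genes, and the higher 4 are 10.0%, against 13.4%. The median log2 change was -0.08 over the members and -0.16 over all tested genes. It was -0.40 over the 28 DDX genes, of which 6 fell and 3 rose, and 0.19 over the 12 DHX genes, of which 2 fell and 1 rose. All log2 changes are MII minus GV on log2(RPKM + 1), a scale that understates the change of low genes.

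In 11 members (27.5%) every MII library was below every GV library, against 32.1% of all tested genes, and in 8 (20%) every MII library was above, against 19.8%. None of the 12 called members overlapped between stages. The other 7 without overlap were not called. They were DHX29, DDX25 and DDX28 on the lower side, and DHX36, DHX40, DDX21 and DHX57 on the higher side. The balance of calls depended on the scaling of the libraries, in the members as in all genes. Of the member calls, 66.7% were lower with the deposited values, 47.1% with median-ratio scaling, 43.8% with quantile-normalized values and 58.3% with values rescaled to TPM. The same shares over all genes called were 66.7%, 55.0%, 47.1% and 59.9%. The median of all tested genes moved to 0.05, 0.19 and -0.07 on the log2 scale under those 3 scalings, and none of the 12 called members changed sign under any of the 16 alternatives tried.

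**Figure D1:**
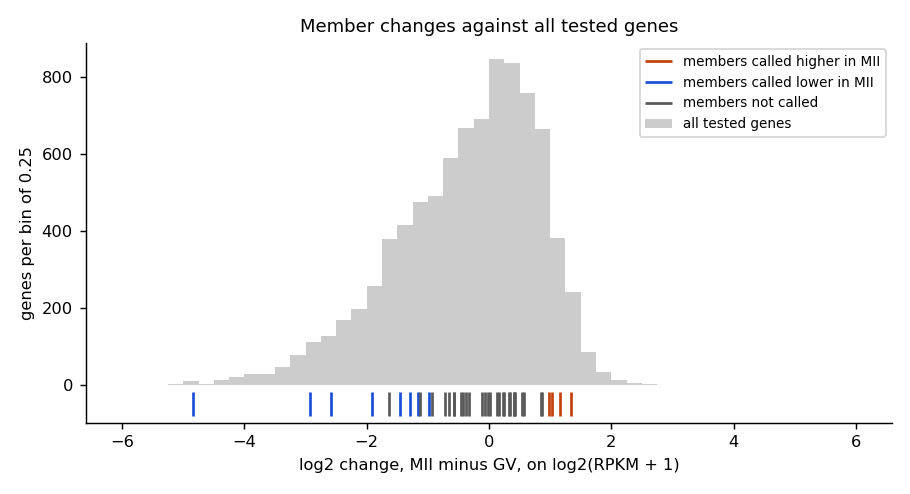
Log2 change, MII minus GV, on the x axis, with the number of tested genes per bin of 0.25 on the y axis (grey bars). Ticks below the bars are the 40 tested helicases, red for the 4 called higher in MII, blue for the 8 called lower and dark grey for the 28 not called; they span -4.84 (DDX39A) to 1.34 (DDX3X).

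**Figure D2:**
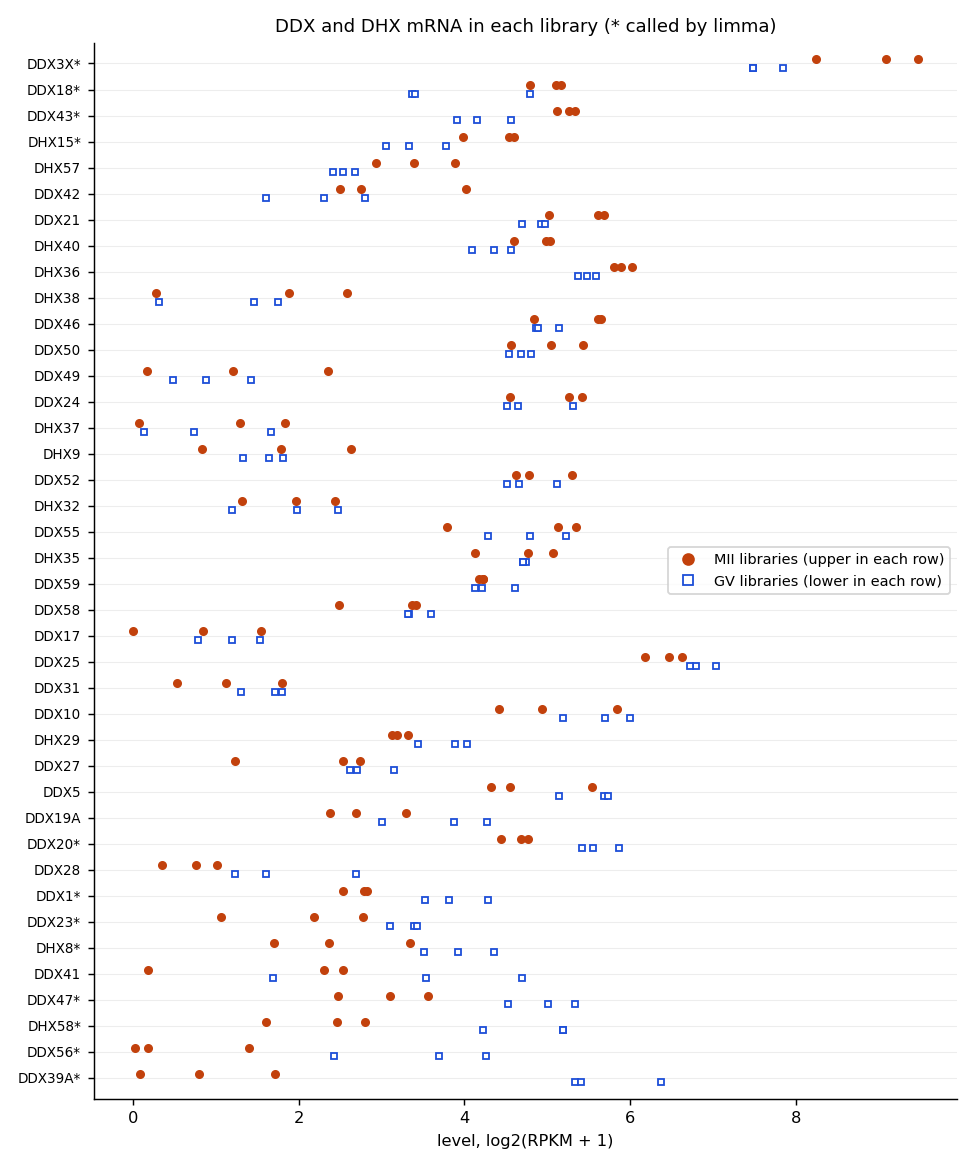
Level of each tested helicase in every library, log2(RPKM + 1) on the x axis, with members ordered by their change from the largest rise (DDX3X, top) to the largest fall (DDX39A, bottom). Filled circles are MII libraries and open squares GV libraries, and an asterisk marks the 12 members called by limma, in which circles and squares do not overlap.

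The largest difference of the family was in mRNA export. DDX39A encodes an export ATPase that hands mRNA to the export adaptor ALYREF, as does its close relative DDX39B. No row of the gene table carries the symbol DDX39B, so that gene could not be set beside DDX39A. DDX39A mRNA had 2.295, 0.058 and 0.737 RPKM in MII14c, MII15 and MII15c, against 39.4, 81.9 and 41.6 RPKM in GV14, GV14c and GV15. All MII libraries were low, and the lowest GV library lay far above the highest MII library. The means were 1.03 ± 1.15 RPKM in MII and 54.3 ± 23.9 RPKM in GV (SD, n = 3 each), so that the GV mean was 52.7 times the MII mean. That ratio rests on the small MII values: it was 137 without MII14c and 35.8 without MII15. The log2 change was -4.84 ± 0.46 (SE; limma adjusted p = 9.53e-05). DDX39A ranked 3 among the members by level in GV and 37 in MII. The gene lies on chromosome 7, with coding bases from 12446539 to 12450911 on the plus strand in 10 blocks (1284 coding nt; coordinates of the authors' annotation, with no build named). At that coding length the value of MII15 stands for 1.58 reads, a lower bound because the gene model is longer than its coding part. The level in that library is close to the limit of detection.

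The other measured export helicases were not called. DDX19A, which releases export factors from mRNA at the outer face of the nuclear pore, averaged 6.18 ± 2.39 RPKM in MII and 13.03 ± 5.67 RPKM in GV (log2 change -0.93 ± 0.40; limma adjusted p = 0.0908). Its value was 8.84 RPKM in MII14c and 7.045 RPKM in GV15, so the stages overlapped. DDX25, known from male germ cells of mice as a helicase for export and translation of spermatid mRNA, was the member of second highest level in both stages. It had 87.7, 98.2 and 71.6 RPKM in the MII libraries, against 109.7, 104.8 and 130.4 RPKM in the GV libraries. MII libraries were all below GV libraries, yet the log2 change was only -0.42 ± 0.21 (limma adjusted p = 0.141). DDX19B was too low to test, with 0.164 to 0.654 RPKM in MII and 0.46 to 1.535 RPKM in GV, and its reads may be split with DDX19A, whose gene span overlaps it on chromosome 18.

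Partners of the export helicases moved in both directions. Of 18 tested genes of the exon junction complex and the TREX export complex, 7 were lower (38.9%, against 26.9% of all tested genes) and 4 higher (22.2%, against 13.4%) in MII, with a median log2 change of -0.38. The 4 higher became 1 without MII15c, 2 without GV14 and 0 without the 2 libraries of no matching title, where the 7 lower became 3. NXF1, the main mRNA export receptor, averaged 8.28 ± 6.32 RPKM in MII and 46.9 ± 13.7 RPKM in GV (log2 change -2.60 ± 0.51; limma adjusted p = 0.00403). NCBP1, a cap-binding protein of the nucleus, averaged 11.6 ± 1.75 RPKM in MII and 27.9 ± 1.64 RPKM in GV (limma adjusted p = 0.003945). THOC2, the scaffold of the THO complex, averaged 39.4 ± 4.74 RPKM in MII and 20.35 ± 1.86 RPKM in GV, on one of 2 rows with that symbol (limma adjusted p = 0.01037). MAGOH, a core protein of the exon junction complex, averaged 1114 ± 206 RPKM in MII and 590.0 ± 94.3 RPKM in GV (limma adjusted p = 0.0121). GLE1, the nuclear pore activator of DDX19, was the only one of 3 tested pore partners called, with 25.35 ± 3.83 RPKM in MII and 14 ± 2.02 RPKM in GV (SD, n = 3 each; limma adjusted p = 0.0275). That call was lost without GV14 (0.0955), GV15 (0.0805), MII14c (0.0779) or MII15c (0.0996), and the MAGOH call without MII15c (0.0609).

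Among 8 tested splicing helicases, 2 fell (25%, near the 26.9% of all tested genes) and 1 rose (12.5%, near 13.4%), with a median log2 change of 0.17. As background, these enzymes act in turn on the spliceosome, from its assembly to its dismantling. DHX8, which releases spliced mRNA, had 9.19, 2.25 and 4.16 RPKM in MII14c, MII15 and MII15c, against 14.2, 19.4 and 10.5 RPKM in GV14, GV14c and GV15. Its highest MII value was just below the lowest GV value, and MII15 was the lowest library. The log2 change was -1.46 ± 0.44 (SE; limma adjusted p = 0.0256). DDX23, which belongs to the U5 snRNP and helps to activate the spliceosome, had 5.865, 1.09 and 3.54 RPKM in the MII libraries, against 9.54, 9.77 and 7.56 RPKM in the GV libraries. Its log2 change was -1.30 ± 0.43 (limma adjusted p = 0.0396), and the call was lost under 11 of the 16 alternatives (adjusted p from 0.00229 to 0.170 over all of them), among them without GV14 (0.113), GV14c (0.0955), GV15 (0.0646), MII15 (0.0641) or MII15c (0.0838). The DHX8 call was lost under 6 (0.000684 to 0.192), among them without GV14 (adjusted p = 0.0742), GV14c (0.0820), MII15 (0.0552) or MII15c (0.0810). Leaving out MII15c and GV14c, which match no title, gave adjusted p = 0.192 for DHX8 and 0.170 for DDX23.

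DHX15, which dismantles spent spliceosomes and also acts in ribosome assembly, was the splicing helicase that rose. It had 23.3, 22.3 and 14.85 RPKM in MII14c, MII15 and MII15c, against 9.09, 7.33 and 12.7 RPKM in GV14, GV14c and GV15. The gap between the stages was narrow, from 12.7 RPKM in GV15 to 14.85 RPKM in MII15c. The means were 20.1 ± 4.61 RPKM in MII and 9.72 ± 2.76 RPKM in GV (SD, n = 3 each; log2 change 0.99 ± 0.30; limma adjusted p = 0.0278). This call was lost under 5 alternatives, with adjusted p = 0.0830, 0.0787, 0.0813 and 0.0558 without GV14, GV14c, MII14c or MII15 and 0.0839 without the 2 libraries of no matching title. DHX15 and other DEAH helicases are switched on by proteins with a G-patch. Of 18 tested G-patch genes, 1 fell and 1 rose (5.56% each, against 26.9% and 13.4% of all tested genes). Their median log2 change was -0.03, and 5 rose with median-ratio scaling. The 1 that fell became 3 without GV15 and 2 without MII14c or MII15. NKRF averaged 14.75 ± 3.14 RPKM in MII and 30.1 ± 3.40 RPKM in GV on one of its 2 rows (limma adjusted p = 0.0125), and GPATCH2 averaged 85.3 ± 13.3 RPKM in MII and 30.3 ± 11.4 RPKM in GV (limma adjusted p = 0.00316).

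The remaining splicing members were not called, and MII15 was the lowest MII library in 4 of these 5. DDX46, which acts when the U2 snRNP binds the branch site, averaged 41.6 ± 12.1 RPKM in MII and 30.3 ± 3.38 RPKM in GV. DHX35, found in the catalytic spliceosome, averaged 25.1 ± 8.14 RPKM in MII and 25.3 ± 0.373 RPKM in GV. DDX41 had 3.935, 0.132 and 4.795 RPKM in MII14c, MII15 and MII15c, against 10.6, 24.8 and 2.22 RPKM in GV14, GV14c and GV15. Its log2 change of -1.63 ± 0.81 was larger in size than that of DHX8, but the spread within both stages was wide (limma adjusted p = 0.138). DDX42 and DHX38 were at 8.56 ± 5.84 and 2.63 ± 2.39 RPKM in MII and at 3.98 ± 1.97 and 1.45 ± 1.10 RPKM in GV, and DHX16 was too low to test.

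Of 5 tested members with roles in transcription, snRNP assembly and several other steps, 2 fell (40%, against 26.9% of all tested genes). None rose, against 13.4% of all tested genes (limma; also 0 higher at an unadjusted p under 0.05). The highest log2 change of these 5 was 0.16, for DHX9, a helicase of transcription and RNA processing (limma adjusted p = 0.804). DDX20, known as Gemin3, is part of the SMN complex that loads Sm proteins onto spliceosomal RNA. It had 24.6, 20.8 and 26.3 RPKM in MII14c, MII15 and MII15c, against 57.4, 41.8 and 45.9 RPKM in GV14, GV14c and GV15. The libraries of each stage were close together, the GV mean was 2.02 times the MII mean, and the call was kept under all 16 alternatives (log2 change -0.98 ± 0.23; limma adjusted p = 0.0088; 0.000305 to 0.0494 over the alternatives). Of 7 tested SMN complex partners, 2 fell (28.6%, near the 26.9% of all tested genes) and 1 rose (14.3%, near 13.4%). GEMIN6 averaged 7.06 ± 1.12 RPKM in MII and 31.7 ± 9.105 RPKM in GV (limma adjusted p = 0.000793), GEMIN4 averaged 0.914 ± 0.765 RPKM in MII and 4.40 ± 0.911 RPKM in GV (0.00961), and STRAP averaged 24.3 ± 5.83 RPKM in MII and 10.8 ± 2.90 RPKM in GV (0.0155; 0.0640 without GV14). SMN1 itself was not called, at 62.7 ± 9.56 RPKM in MII and 60.8 ± 2.07 RPKM in GV.

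DDX1, a subunit of the tRNA ligase complex that joins the exons of spliced tRNA, had 5.89, 6.07 and 4.82 RPKM in the MII libraries, against 13.1, 18.5 and 10.5 RPKM in the GV libraries. MII libraries were close together and all below GV libraries (log2 change -1.16 ± 0.30; limma adjusted p = 0.0136). The call was lost without MII15c (adjusted p = 0.0587) and without the 2 libraries of no matching title (0.152). Of 6 tested partners in that complex 1 was lower (16.7%, against 26.9% of all tested genes) and none was higher, against 13.4%. The lower one was C2orf49, at 3.53 ± 0.185 RPKM in MII and 18.6 ± 1.63 RPKM in GV (SD, n = 3 each; limma adjusted p = 0.000386). DDX5, a coregulator of transcription that also works in microRNA processing, averaged 28.9 ± 14.4 RPKM in MII and 45.65 ± 9.73 RPKM in GV, and was not called (limma adjusted p = 0.1235). Its relative DDX17 was far lower, at 0.903 ± 0.961 RPKM in MII and 1.30 ± 0.592 RPKM in GV. DROSHA, the nuclease of the microRNA-processing complex that both of them join, averaged 45.0 ± 5.89 RPKM in MII and 24.3 ± 6.69 RPKM in GV (limma adjusted p = 0.0251); its call was lost without GV14c (0.0652), GV15 (0.0502) or MII15c (0.102).

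Ribosome assembly held 23 of the 59 rows and 13 of the 40 tested members, of which 2 fell (15.4%, against 26.9% of all tested genes), 1 rose (7.69%, against 13.4%) and 10 were not called. Roles were given by symbol, so the 23 rows include all 6 DDX21 rows, of which only that on chromosome 28 was tested. Another, on chromosome 10, bears the name TRAV29DV5 in the annotation and was at 0 in all libraries. DDX47, needed for the small ribosomal subunit, had 10.8, 7.56 and 4.55 RPKM in MII14c, MII15 and MII15c, against 39.5, 22.1 and 31.2 RPKM in GV14, GV14c and GV15. Every GV value was more than the highest MII value, and the call was kept under all 16 alternatives (log2 change -1.92 ± 0.35; limma adjusted p = 0.00264; 1.20e-05 to 0.0168 over the alternatives). DDX56, a nucleolar helicase of the large subunit, had 1.64, 0.02 and 0.133 RPKM in the MII libraries, against 11.96, 18.1 and 4.37 RPKM in the GV libraries. The stages did not overlap, although GV15 was well below the other GV libraries (log2 change -2.92 ± 0.54; limma adjusted p = 0.0029; 2.28e-05 to 0.0465 over the alternatives). At its coding length of 1641 nt, the MII15 and MII15c values of DDX56 stand for 0.698 and 7.11 reads. These are lower bounds, as the annotated gene runs 649 bp past the coding end, and both values rest on few reads.

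DDX18, a helicase of the large ribosomal subunit, was the member of this role that rose. Its row on chromosome 2 had 33.3, 26.7 and 34.9 RPKM in MII14c, MII15 and MII15c, against 9.37, 26.6 and 9.60 RPKM in GV14, GV14c and GV15. GV14c stood near the MII libraries, and its value of 26.64 RPKM was just under the 26.68 RPKM of MII15. The log2 change was 1.16 ± 0.38 (SE; limma adjusted p = 0.0378), and the call was lost under 5 alternatives. The adjusted p was 0.134, 0.119, 0.0882 and 0.118 without GV14, GV15, MII14c or MII15c, and 0.0932 with no filter on low values. A second DDX18 row, on chromosome 4 with 2 coding blocks, was too low to test. It had 1.349, 0.116 and 0.607 RPKM in the MII libraries and 0.083, 1.248 and 0.098 RPKM in the GV libraries, so that libraries with the letter c were the higher ones in both stages.

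**Figure D3:**
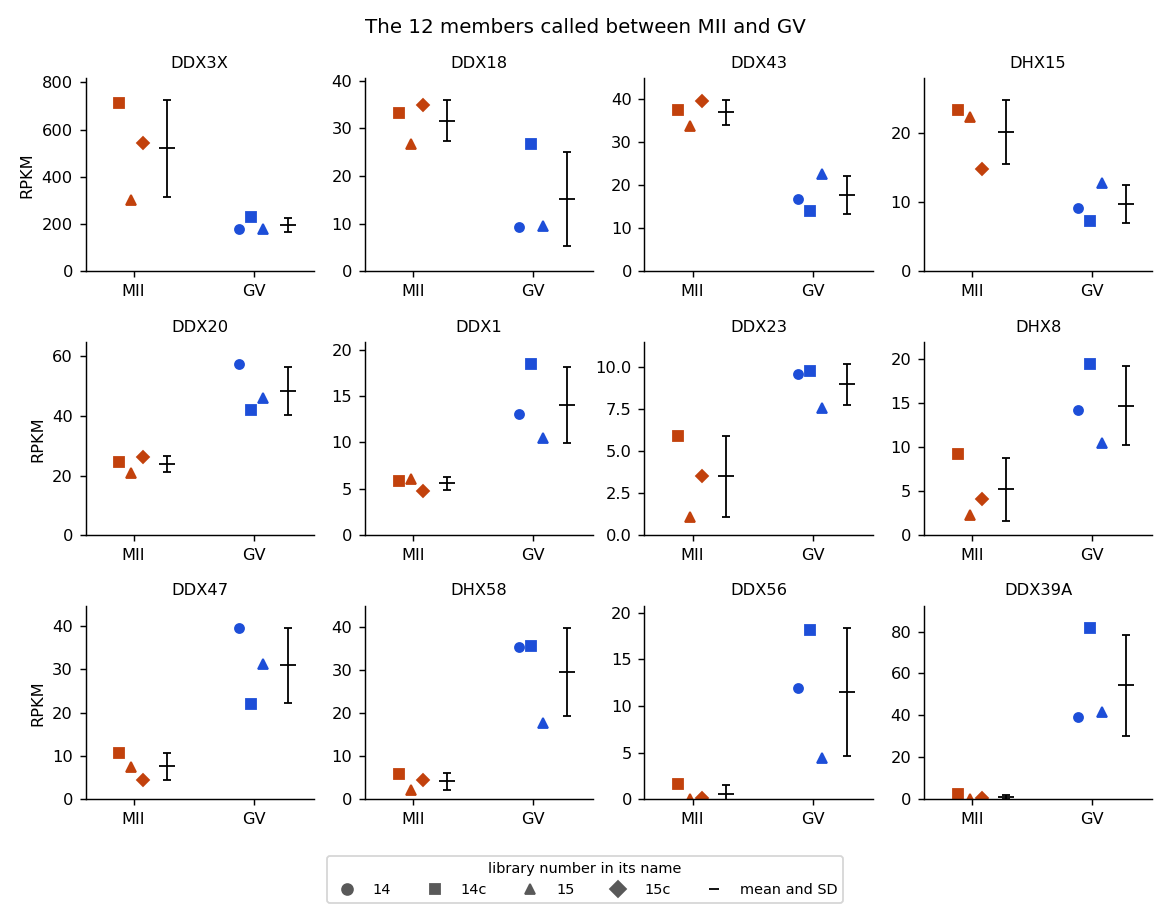
Level in RPKM (y axis, starting at 0 in each panel) of the 12 called helicases, with MII at the left and GV at the right of each panel; points are libraries, with a marker for each library number, and bars are the mean and SD of 3 libraries. The 8 lower members include DDX39A, near 0 in all MII libraries, and in the DDX18 panel 1 GV library (GV14c, 26.6 RPKM) lies beside the MII values.

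The 10 ribosome assembly members that were not called included 6 at 10 RPKM or more in a stage mean. DDX10 averaged 35.5 ± 18.7 RPKM in MII and 49.9 ± 13.8 RPKM in GV, DDX24 averaged 33.9 ± 10.1 RPKM in MII and 28.3 ± 9.10 RPKM in GV, and DDX55 averaged 28.9 ± 14.2 RPKM in MII and 27.2 ± 9.03 RPKM in GV. DDX52 averaged 29.6 ± 7.90 RPKM in MII and 26.7 ± 6.32 RPKM in GV. In these 4 the difference was smaller than the spread within a stage. DDX21, which acts in transcription and processing of rRNA, and its paralog DDX50 are neighbours on chromosome 28. DDX21 had 50.5, 31.4 and 47.9 RPKM in the MII libraries, against 24.9, 29.4 and 30.4 RPKM in the GV libraries, with no overlap but no call (log2 change 0.58 ± 0.25; limma adjusted p = 0.0980). DDX50 averaged 32.4 ± 9.805 RPKM in MII and 24.65 ± 2.36 RPKM in GV. The lower members DDX27, DDX31, DDX49 and DHX37 had stage means of 0.969 to 6.18 RPKM, and all of them overlapped between stages.

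Other nucleolar genes moved in both directions as well. Among 25 tested genes of the small-subunit processome, 5 fell (20%) and 2 rose (8%), with a median log2 change of 0.04. Among 20 tested large-subunit assembly factors, 9 fell (45%) and 1 rose (5%), with a median of -0.59; of all tested genes 26.9% fell and 13.4% rose. The 9 became 4 without GV14 or MII15c, 5 without GV14c or MII15, 5 with TPM scaling, 5 with no filter, 6 with quantile normalization and 3 without the 2 libraries of no matching title, and the 2 processome genes that rose became 1 without GV15, 4 without MII15 and 5 to 7 under the 3 other scalings. IMP4, a processome protein that binds U3 snoRNA, averaged 1.38 ± 0.277 RPKM in MII and 36.8 ± 5.70 RPKM in GV (limma adjusted p = 2.57e-05), and RCL1, a processome cleavage factor, averaged 0.399 ± 0.393 RPKM in MII and 6.93 ± 1.79 RPKM in GV (0.000688). On the higher side, the processome proteins UTP20 and WDR75 averaged 86.1 ± 5.46 and 77.3 ± 2.83 RPKM in MII and 34.0 ± 9.07 and 43.9 ± 5.49 RPKM in GV (limma adjusted p = 0.00292 and 0.01215; 0.0509 for WDR75 without GV15). For the large subunit, RPF1 averaged 27.4 ± 3.12 RPKM in MII and 90.3 ± 6.10 RPKM in GV (limma adjusted p = 0.000373), and RRS1 averaged 3.64 ± 0.429 RPKM in MII and 14.3 ± 1.89 RPKM in GV (0.00142). GTPBP4, a GTPase of large-subunit assembly, averaged 238 ± 46.4 RPKM in MII and 104.5 ± 12.6 RPKM in GV (limma adjusted p = 0.00342).

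In the cytoplasm, DDX3X rose and was the most abundant member of both stages. DDX3X helps ribosomes to start on mRNAs whose leaders fold tightly. It had 712, 303 and 544 RPKM in MII14c, MII15 and MII15c, against 177.8, 228.5 and 178.1 RPKM in GV14, GV14c and GV15. The GV libraries were close together, while the MII libraries were spread and MII15 was the lowest of them. The means were 520 ± 206 RPKM in MII and 194.8 ± 29.2 RPKM in GV (SD, n = 3 each), a ratio of 2.67, with a log2 change of 1.34 ± 0.31 (SE; limma adjusted p = 0.00818). The call was lost only without the 2 libraries of no matching title, where the log2 change was 1.38 and the adjusted p 0.0587 with 2 libraries in each stage. The coding bases of DDX3X run from 107679224 to 107691736 on the minus strand of chromosome X, in 17 blocks, and the annotated gene extends 2377 bp past the coding end.

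The share of DDX3X in the family was larger in MII. It made up 46.1%, 35.0% and 44.0% of the summed RPKM of all members in MII14c, MII15 and MII15c, against 18.1%, 19.8% and 19.5% in GV14, GV14c and GV15. The members together summed to 1216 ± 339 RPKM in MII and 1016 ± 126 RPKM in GV, and without DDX3X to 696 ± 134 RPKM in MII and 821.5 ± 98.3 RPKM in GV (SD, n = 3 each). The other cytoplasmic helicases differed less. DHX36, which resolves G-quadruplex structures in mRNA, had the third highest level in MII, with 64.3, 55.0 and 58.3 RPKM in MII libraries, against 47.0, 40.3 and 43.8 RPKM in GV libraries. The stages did not overlap, yet the gene was not called (log2 change 0.43 ± 0.20; limma adjusted p = 0.120). DHX29, which helps the small ribosomal subunit to scan structured leaders, averaged 8.30 ± 0.646 RPKM in MII and 13.02 ± 2.88 RPKM in GV (limma adjusted p = 0.127). DHX34, a factor of nonsense-mediated decay, reached at most 0.00892 RPKM in MII and 0.019 RPKM in GV, and the DDX3Y row at most 0.012 RPKM in MII and 0.018 RPKM in GV.

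Among other RNA helicases without a DDX or DHX symbol, 1 fell (7.14%, against 26.9% of all tested genes) and 4 rose (28.6%, against 13.4%) of 14 tested, with a median log2 change of 0.44. The 4 that rose became 2 without MII15c, 1 without the 2 libraries of no matching title, and 7 with median-ratio scaling, quantile normalization or library weights. EIF4A2, a subunit of the cap-binding translation factor, averaged 621.7 ± 71.9 RPKM in MII and 270.5 ± 92.1 RPKM in GV on one of its 2 rows (limma adjusted p = 0.00529). DICER1, the nuclease of microRNA maturation, averaged 60.4 ± 12.5 RPKM in MII and 23.5 ± 5.70 RPKM in GV (limma adjusted p = 0.00409). MOV10, a helicase of RNA silencing and decay, averaged 2.25 ± 0.492 RPKM in MII and 33.8 ± 12.1 RPKM in GV (limma adjusted p = 0.000122). SUPV3L1, of mitochondrial RNA turnover, and TDRD12, of the piRNA pathway, also rose; they were named because the count was small, with log2 changes of 1.19 and 0.83. Of 7 tested cofactors of the eIF4A helicases, 1 fell and 1 rose (14.3% each, against 26.9% and 13.4% of all tested genes). EIF4B fell, at 5.12 ± 3.61 RPKM in MII and 14.9 ± 4.73 RPKM in GV, and EIF4G2 rose, at 317 ± 32.0 RPKM in MII and 167.8 ± 28.8 RPKM in GV (limma adjusted p = 0.0312 and 0.0078). The EIF4B call was lost without GV14 (0.0643), GV14c (0.0976), GV15 (0.053) or MII15c (0.067).

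The sensors of foreign RNA were split. DHX58, known as LGP2, is a relative of RIG-I that binds RNA but lacks the signalling domain. It had 5.96, 2.05 and 4.50 RPKM in MII14c, MII15 and MII15c, against 35.5, 35.6 and 17.8 RPKM in GV14, GV14c and GV15. All MII libraries were below all GV libraries, and the GV mean was 7.10 times the MII mean (log2 change -2.58 ± 0.40; limma adjusted p = 0.00123; 9.82e-06 to 0.0229 over the alternatives). DDX58, which encodes RIG-I itself, had 9.32, 4.60 and 9.66 RPKM in the MII libraries, against 9.04, 11.1 and 9.015 RPKM in the GV libraries, and was not called (log2 change -0.33 ± 0.33; limma adjusted p = 0.459). The difference between the changes of DHX58 and DDX58 was not tested. Of 9 genes of RIG-I-like receptor signalling, 1 was high enough to test and 4 were at 0 in all libraries. That gene was the kinase TBK1, at 22.3 ± 6.615 RPKM in MII and 11.35 ± 6.81 RPKM in GV (limma adjusted p = 0.0817), while the relay protein MAVS averaged 0.096 ± 0.0436 RPKM in MII and 0.0733 ± 0.0871 RPKM in GV. The summed blood and immune markers given above were also lower in every MII library than in every GV library, most of the sum coming from CD3E and CSF1R. CD3E was called lower in MII (limma adjusted p = 0.0055) and CSF1R was not (0.0793). CD68 and LYZ, too low to test, averaged 0.024 and 0.053 RPKM in MII and 0.442 and 0.362 RPKM in GV, LYZ on one of its 11 rows. Of the 6, PTPRC was at or under 0.13 RPKM in MII and at 0 in GV, and HBB was at 0 in all libraries. The part of this list in the DHX58 difference was not tested.

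DDX43, a cancer-testis gene normally expressed in germ cells, had 37.5, 33.8 and 39.4 RPKM in MII14c, MII15 and MII15c, against 16.75, 14.1 and 22.7 RPKM in GV14, GV14c and GV15. The MII libraries were close together and all above the GV libraries (log2 change 1.03 ± 0.25; limma adjusted p = 0.0101). The call was lost only without the 2 libraries of no matching title (log2 change 0.84; adjusted p = 0.112). DDX53, the other cancer-testis member, was too low to test, with at most 0.893 RPKM in MII and 0.385 RPKM in GV. Of the mitochondrial members, DDX28 had 0.273, 1.02 and 0.697 RPKM in MII libraries, against 2.05, 5.47 and 1.34 RPKM in GV libraries, with no overlap but no call (log2 change -1.13 ± 0.42; limma adjusted p = 0.0581). DHX30 was too low to test.

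Of the 4 tested members put in no role, none was called (limma; 1 had an unadjusted p under 0.05, DHX57 at 0.0245). DHX57 had 9.54, 6.66 and 13.8 RPKM in the MII libraries, against 5.41, 4.31 and 4.78 RPKM in the GV libraries. Its stages did not overlap, and its adjusted p of 0.0583 fell to 0.0163 after median-ratio scaling. DHX40 averaged 28.6 ± 4.62 RPKM in MII and 19.45 ± 3.26 RPKM in GV, DDX59 averaged 17.5 ± 0.349 RPKM in MII and 19.1 ± 3.70 RPKM in GV, and DHX32 averaged 2.94 ± 1.47 RPKM in MII and 2.93 ± 1.63 RPKM in GV. The DNA helicase DDX11 stayed at or under 0.142 RPKM in MII and 0.164 RPKM in GV. The highest of the other untested rows were DHX16, at 0.494 ± 0.0848 RPKM in MII and 1.09 ± 0.716 RPKM in GV, and DDX51, at 0.309 ± 0.109 RPKM in MII and 1.06 ± 0.300 RPKM in GV.

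**Figure D4:**
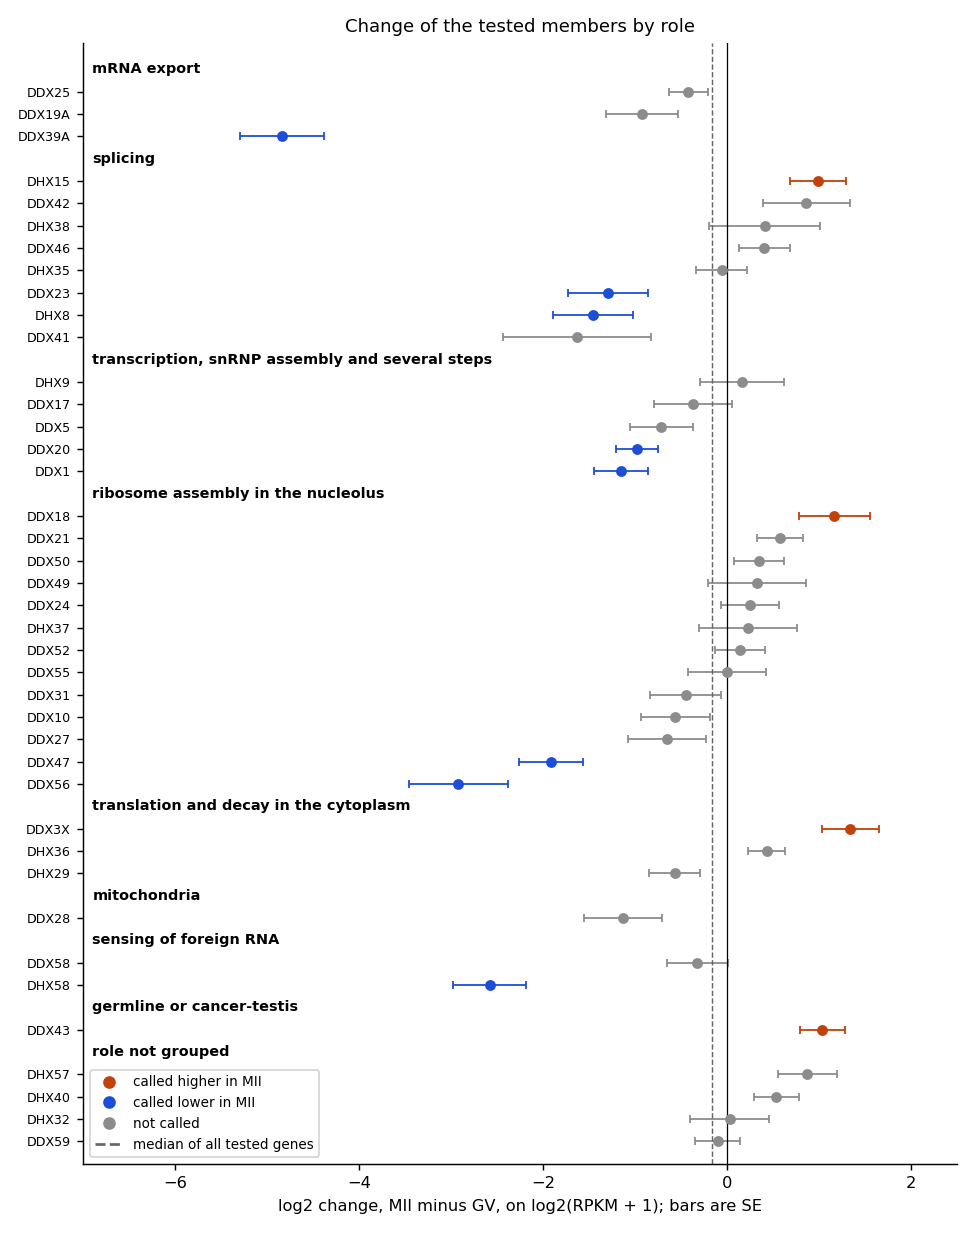
Log2 change, MII minus GV, of the 40 tested helicases with the SE as bars, grouped by role down the page; red marks members called higher in MII, blue those called lower and grey those not called. The dashed line is the median of all tested genes (-0.16), and the splicing and ribosome assembly roles hold called members on both sides of 0.

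Paralogs were compared by their ratio within each library, on log2(RPKM + 1), so that library scaling cancels only where both genes are well above 1 RPKM. That holds for DDX21 and DDX50, whereas DDX3Y, DDX17 and DDX19B lie near or under 1 RPKM. The log2 ratio of DDX3X to DDX3Y was 1.34 higher in MII than in GV, the same as the change of DDX3X alone (exact permutation p = 0.1, two-sided, the smallest that 3 against 3 allows; 0.267 adjusted over the 4 pairs compared). For DDX21 over DDX50 the log2 ratio averaged 0.42 in MII and 0.19 in GV, a difference of 0.23 (exact permutation p = 0.2; adjusted 0.267). The difference was -0.47 for DDX19A over DDX19B (exact permutation p = 0.2; adjusted 0.267) and -0.34 for DDX5 over DDX17 (exact permutation p = 0.8). With 3 libraries a stage, none of the 4 could have passed 0.05, so a p above it does not show that the paralogs changed alike.

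The members varied with the library as well as with the stage. MII15 was the lowest of the MII libraries in 32 of 40 members (80.0%), against 56.9% of all tested genes, and GV14c was the highest of the GV libraries in 27 (67.5%), against 48.6%. In 23 members (57.5%) the libraries with the letter c lay above those without it in both stages, against 32.6% of all tested genes, and in 2 (5.0%) they lay below in both, against 11.2%. The median of the c libraries minus the others, on log2(RPKM + 1), was 0.78 in MII and 0.40 in GV over the members, and 0.29 in MII and 0.16 in GV over all tested genes. DDX41 showed the largest such gap, 2.24 in MII and 2.08 in GV. Of the 12 called members, DDX23, DDX3X, DDX56, DHX8, DDX18, DDX39A and DHX58 had this pattern and DDX1, DDX20, DDX43, DDX47 and DHX15 did not. With the letter as a term beside the stage, 14 members (35%) were lower and 4 (10%) higher in MII, against 34.3% and 16.9% of all tested genes in the same fit. What the letter marks is not stated, and its part in these differences was not tested. GV14c, the only GV library with the letter, matches no sample title, and neither does MII15c. Their letter therefore cannot be checked against the sample records.

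**Figure D5:**
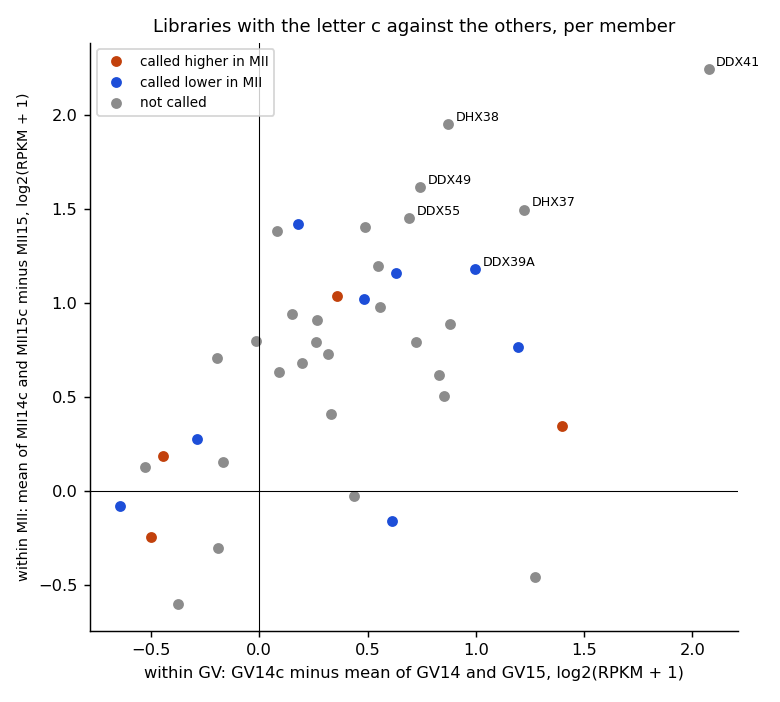
For each tested helicase, the level in MII14c and MII15c minus that in MII15 (y axis) against the level in GV14c minus the mean of GV14 and GV15 (x axis), both on log2(RPKM + 1); colours are the calls between stages. Most points lie above 0 on both axes, 33 of 40 within MII and 30 of 40 within GV, and DDX41 lies farthest out at 2.24 and 2.08.

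Features of the gene models were described for the same members. Spearman's rho across the 40 genes between coding length and log2 change was 0.33, and between the distance from the coding end to the annotated gene end and log2 change it was 0.16. Genes share libraries and are not independent, so no test is given. The annotated gene ran at least 1000 bp past the coding end in 0 of 8 lower members, in 2 of 4 higher ones (DDX3X and DDX43) and in 6 of 28 not called. None of the 12 called members overlapped an annotated gene on the opposite strand. DHX32, DDX49, DHX38, DDX42 and DDX55 among the tested members did, and without strand their reads and those of the partner gene cannot be told apart.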

How the data were processed

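Gene-level RPKM of 3 MII and 3 GV libraries of bovine oocytes were used as the authors deposited them, in a table with the human ortholog symbol of each gene, per the file headers. DESeq appears in the submitters' processing notes with no role. No source used here names the aligner, the read counter or the genome build. Coordinates come from the authors' deposited annotation, extended by transcript discovery with CLC, per the file headers, and are counted from 1. Stage was taken from the stage label, because another label calls every sample matured in vitro. All 6 value columns were mapped to a stage.

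The 8671 genes whose mean over the libraries reached 1 RPKM were tested on log2(RPKM + 1), MII minus GV, by limma (version 3.58.1, R 4.3.3; eBayes with trend = TRUE), with Benjamini-Hochberg adjustment over all of them and a threshold of 0.05; a gene past it is said to be called, to rise or to fall. A count model was not used, as RPKM are not counts. The scripts were tested on simulated data. Depth was chosen as the number of mapped reads at which low values stood for whole reads. From 3579 gene models, 202 (MII15) to 438 (GV14c) low values per library were used. At the chosen depth 87.6% to 94.7% of these came within 0.1 read, against a median of 10.7% to 14.1% over the depths tried. Alternatives were another pseudocount (0.1), 2 other filters, 3 other scalings, library weights, each library left out, the 2 libraries of no matching title left out, and the library number or the letter c as a term.

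Named genes were all called members, the 3 most abundant of each stage, the paralog pairs, uncalled members at 10 RPKM or more in a stage mean, and up to 2 genes in each direction of smallest adjusted p from each partner list; others named for a small count, or described beside them, were chosen after their values were seen. Members, roles and lists were chosen with earlier results of these data known. Many listed genes are expressed by oocytes themselves, and no set test was run. No sequences of the members were used here.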

Additional observations from a re-analysis of the deposited data

How the results depend on the processing

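Under 16 alternatives the 12 called members kept their call in 161 of 192 member-alternative pairs, and 5 of them (DDX20, DDX39A, DDX47, DDX56 and DHX58) kept it under every one. Of the 28 members not called, 16 were called under at least 1 alternative and 13 changed sign under at least 1. The 8 lower members became 14 with library weights, 14 with the letter c as a term, 5 without the 2 libraries of no matching title, and 5 to 10 when 1 library was left out (5 without MII15c). The 4 higher members became 9 after median-ratio scaling, 9 after quantile normalization, 11 with library weights, 1 without the 2 libraries of no matching title, and 2 to 6 when 1 library was left out (2 without GV14 or MII14c, 6 without MII15). The library weights were 6.59 for MII15c, 0.71 for MII14c and 0.28 for MII15, and 2.23, 0.43 and 0.79 for GV14, GV14c and GV15. The MII level in that fit thus rested mostly on MII15c, which matches no sample title. Of 120 tested partner genes, 27 were lower (22.5%) and 16 higher (13.3%), against 26.9% and 13.4% of all tested genes. The 27 became 41 with library weights, 13 without the 2 libraries of no matching title, and 20 to 28 when 1 library was left out. The 16 became 28 after median-ratio scaling, 32 after quantile normalization, 32 with library weights, 4 without the 2 libraries of no matching title, and 9 to 20 when 1 library was left out (9 without MII15c). Of the 24 partner genes named, 12 kept their call under every alternative, and the other 12 lost it without the 2 libraries of no matching title. DICER1, EIF4G2, GEMIN4, NCBP1, NKRF and THOC2 lost it only there. The other 6 (DROSHA, EIF4B, GLE1, MAGOH, STRAP and WDR75) also lost it when 1 library was left out. Counts over all tested genes moved in the same fits: the 2329 lower became 3220 with library weights, 2975 with the letter c as a term and 1280 without the 2 libraries of no matching title, and the 1162 higher became 1686 with median-ratio scaling, 2055 with quantile normalization, 2262 with library weights and 352 without those 2 libraries. The cause of these shifts was not tested. Fits with libraries left out also have fewer libraries. The ratio of DDX19A to DDX19B turned to 0.15 with a pseudocount of 0.1, and its range when 1 library was left out was -0.67 to -0.30; that of DDX5 to DDX17 turned to 0.48 with that pseudocount and ran from -0.69 to 0.16 when 1 library was left out (0.16 without MII15c). With the number in the library name as a replicate block, 7 members were lower and 5 higher and 25 partner genes were lower and 18 higher. Whether the library numbers pair the samples cannot be decided here. Deviations from a stage mean sum to 0 over its libraries, so their correlations depend on one another. The correlation was 0.33 for MII14c with GV14c and 0.427 for MII15 with GV15, which share number and letter status. It was -0.01 for MII14c with GV14 and -0.23 for MII15c with GV15, which share the number alone. With letter status alone shared, it was 0.07 for MII15 with GV14 and 0.26 for MII15c with GV14c. Pairs that share neither ran from -0.41 to -0.10. Depth limits the lowest values: DDX39A and DDX56 in MII15 stand for 1.58 and 0.698 reads at their coding lengths, which are lower bounds.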
